A study of Saccharomyces cerevisiae with 4 samples.

Results

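Ribosome footprints from yeast that lack VPS35 and carry a plasmid for TIF4631 were compared with footprints from yeast labelled as wild type with the same plasmid. The comparison covered every open reading frame (ORF) with at least 200 reads summed over the 4 libraries of the study, which was 4997 of the 5441 ORFs listed and left 444 out. All cells were Saccharomyces cerevisiae of strain Y7092, a haploid laboratory strain made for systematic genetic crosses. The 4 libraries were wild type with the control plasmid pAG416GAL-ccdB, wild type with pAG416GAL-TIF4631, the vps35 deletion with the control plasmid, and the vps35 deletion with pAG416GAL-TIF4631, where the deletion replaced VPS35 with the natMX drug marker. Both plasmids drive their insert from a galactose-inducible promoter, induction lasted 2 h, and nothing in the labels says whether a strain was 1 clone or several. Each combination was sequenced once, so every difference below is between libraries, no spread between cultures is known, and no test was made.

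VPS35 encodes the core of retromer, the coat that carries membrane proteins from endosomes back to the Golgi and the cell surface, away from breakdown in the vacuole. Many nutrient transporters of yeast pass through these endosomes. TIF4631 encodes eIF4G1, the scaffold that joins the cap-binding protein eIF4E, the poly(A)-binding protein and the helicase eIF4A on an mRNA before the ribosome is recruited. Mutations in the human counterparts of both genes have been linked to Parkinson's disease, and the series asks how the yeast genes act together. A footprint count holds mRNA level and translation of that mRNA together, and the amount of mRNA was not measured in the files used.

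The counts summed to between 11240681 and 18067205 per library, with 18067205 in the library labelled wild type plus TIF4631 and 16341045 in that of the deletion with TIF4631. Levels are given as CPM, the counts scaled to a common library size by the trimmed mean of M-values (TMM), always in the order wild-type control, labelled wild type plus TIF4631, vps35 deletion control, vps35 deletion with TIF4631. Each log2 ratio sets the deletion library over the wild-type library of the TIF4631 label, and the range in parentheses is its 95% counting interval. Sequenced PCR products carry no molecular identifiers here, so these intervals cover counting error only. A count of 0 allows up to 3 counts, which is at most 0.264 CPM, in the smallest library.

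The targeted genes were read first, because they check the labels. VPS35 (YJL154C, chromosome X, 131101 to 133935 in the sacCer3 build) gave 2187, 1974, 9 and 10 counts. Its log2 ratio was -7.48 (-8.62 to -6.67), a 178-fold lower level in the deletion. TIF4631 (YGR162W, chromosome VII, 824059 to 826917) lay at 454.7, 403, 435 and 6217 CPM, a log2 ratio of 3.95 (3.91 to 3.98). High TIF4631 was thus measured in a single library, that of the deletion carrying the TIF4631 plasmid, and the library labelled wild type plus TIF4631 held no more of it than either control, which goes against its label. The comparison therefore differs in VPS35 and in raised TIF4631 at once, and not in these alone. The library labelled wild type plus TIF4631 also stood away from the wild-type control without raised TIF4631. Its biotin gene BIO5, for example, lay at 345.5 CPM against 6.59 in that control. The part of each in a difference cannot be told apart from these libraries. For the main genes the levels in the control libraries are given too.

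Other markers of strain and plasmid were mixed. URA3, the selectable marker of pAG416 plasmids and an enzyme of pyrimidine synthesis, lay at 855, 884.3, 731.7 and 117.9 CPM, a log2 ratio of -2.91 (-2.98 to -2.84), so that the deletion library with TIF4631 stood apart from the other libraries. HIS3, a histidine synthesis gene, had a log2 ratio of 0.61 (0.50 to 0.71). LEU2 and MET17 had 0 counts in every library. The alpha-mating-type genes STE3, at 376.5 to 431.8 CPM, and SAG1, at 342.6 to 592.9 CPM, were well measured, while the a-cell genes STE2, MFA1, MFA2, BAR1, AGA2 and STE6 were all under the read minimum. Y7092 is of the alpha mating type. STE2, the alpha-factor receptor of a cells, still gave 92 counts in the deletion library with TIF4631 and 13 to 37 elsewhere, and its source was not tested. The galactose enzymes GAL1, GAL7 and GAL10 were abundant in every library, with GAL1 at 20612 to 31079 CPM.

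The TIF4631 excess did not extend to its partners. TIF4632, the second eIF4G gene of yeast, had a log2 ratio of -0.29 (-0.37 to -0.20), CDC33, which encodes eIF4E, 0.08 (0.03 to 0.13), and PAB1, the poly(A)-binding protein, -0.58 (-0.61 to -0.55). Per length, TIF4631 reached 2232 RPKM, the reads per kilobase of ORF scaled to library size, in the deletion library, against 717.9 for CDC33 and 47.4 RPKM for TIF4632 in the same library. In the library labelled wild type plus TIF4631 the order was different, with CDC33 at 645 RPKM above TIF4631 at 137.5 RPKM. None of the 28 initiation factor genes measured differed by 2-fold. By the rule given below 1.58% of all ORFs were called higher and 2.4% lower, so 0 of 28 is near the overall share. In this count TIF4631 itself was left out of the list.

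Across the 4997 ORFs the log2 ratios centred on 0.00, with a spread of 0.35 (median absolute deviation scaled to an SD), and 80.7% lay within 0.5 of 0. The median counting interval reached 0.13 to either side, so that most of that spread was wider than counting error. An ORF was called higher or lower where its log2 ratio was at least 1 in size and its interval left out 0. By this rule 79 ORFs, 1.58% of those compared, were higher in the deletion library, and 120, or 2.4%, were lower. Beyond counting error alone, 33.8% of ORFs lay above 0 and 35.3% below, which is the background for the counts in gene groups. At the edge of the rule, ISA1 was just inside at 1.0 and IPI1 just outside at 0.997, and among lower ORFs SLM3 at -1.0 was just inside and GGC1 at -0.999 just outside. Called ORFs that overlap another annotated gene numbered 1 of the higher and 5 of the lower, and their counts may hold reads of the neighbour.

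**Figure D1:**
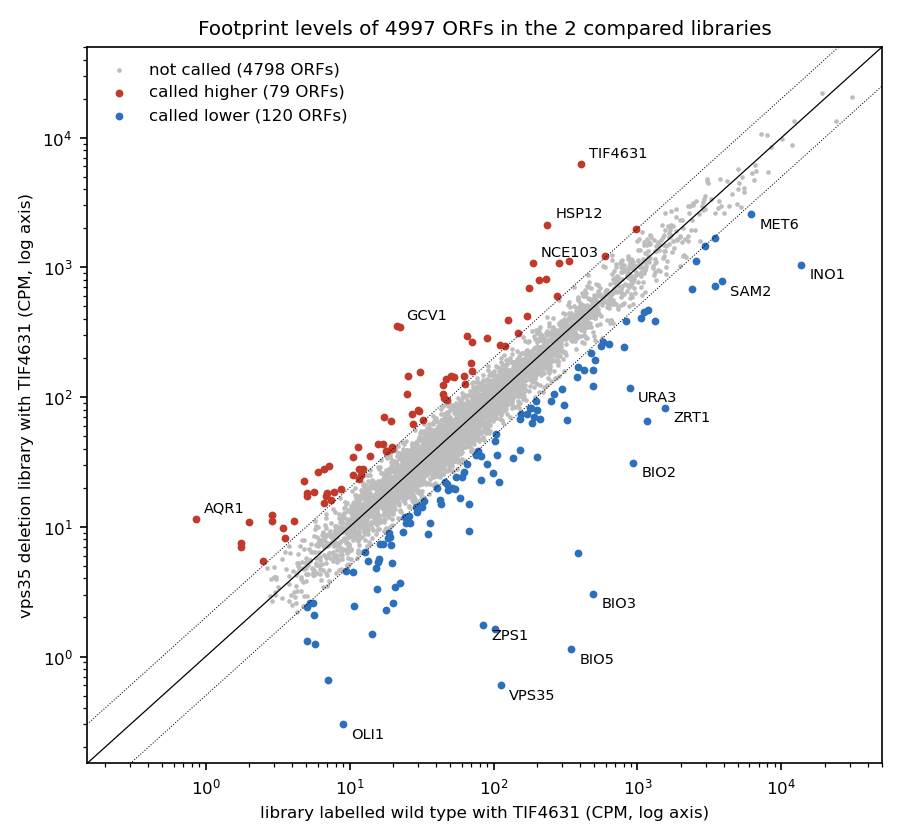
Footprint level (CPM, log axes) of each of the 4997 ORFs in the library labelled wild type plus TIF4631 (x) and in that of the deletion with TIF4631 (y), with 1 point per ORF, the solid line at equal levels and the dotted lines at 2-fold. TIF4631 and the glycine cleavage gene GCV1 stand above the band, and the biotin genes BIO2, BIO3 and BIO5 and the zinc transporter ZRT1 stand below it.

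Which of the 4 libraries carried a called difference was read from the levels themselves. The levels of each ORF were put in order on the log scale and split at their largest gap, a description chosen after values had been seen. The call rule itself compares the deletion library with TIF4631 and the library labelled wild type plus TIF4631. Called ORFs therefore favour splits that set either of them apart, and the shares over all ORFs do not correct for this. Among the 79 higher ORFs, 59 had the deletion library with TIF4631 alone above the other libraries, a split found for 20.6% of all ORFs. Another 14 had both deletion libraries above both wild-type libraries, among them the carbonic anhydrase NCE103, the cell wall gene CWP1 and the MAP kinase gene SLT2, against 3.94% of all ORFs. Among the 120 lower ORFs the deletion library with TIF4631 was alone below in 56, both deletion libraries were below in 31, and the library labelled wild type plus TIF4631 was alone above in 32. Over all ORFs these splits made up 23.3%, 3.80% and 8.39%. That last group held BIO5, BIO3, BIO4, VHT1, ZPS1 and INO1, so the strongest lower ratios rest in part on high levels in the library whose label TIF4631 contradicted. Against the wild-type control in turn, the deletion library with TIF4631 stood at least 2-fold off in either direction for 57 of the 79 higher and 71 of the 120 lower ORFs, and the library labelled wild type plus TIF4631 stood 2-fold off for 2 and 17. Over all 4997 ORFs the counts were 152 and 28, and the larger shares among called ORFs follow in part from the call rule.

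**Figure D2:**
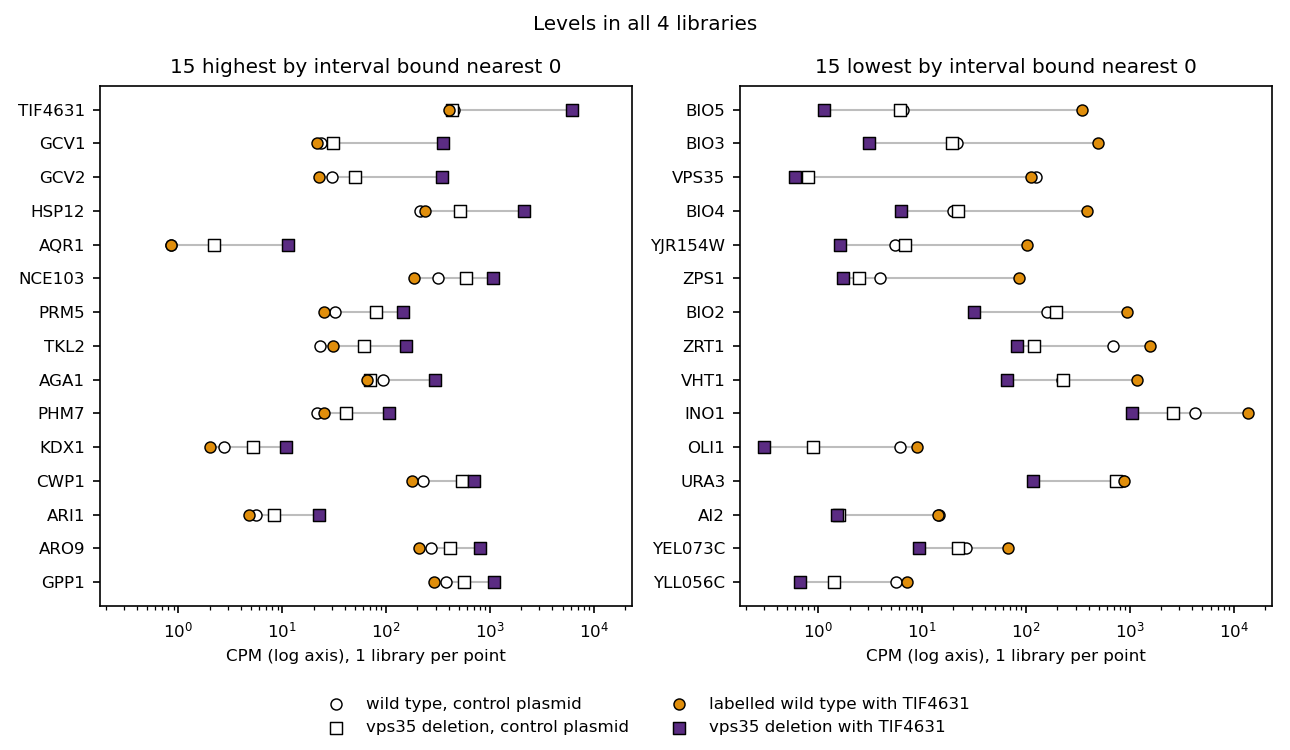
CPM (log axis) in each of the 4 libraries for the 15 higher (left) and 15 lower (right) ORFs with the interval bound farthest from 0, with circles for wild type, squares for the vps35 deletion and filled symbols for the TIF4631 label. On the left the filled square of GCV1, at 351.7 CPM, stands away from the other symbols, and on the right the filled circle of BIO5, at 345.5 CPM, does so.

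Genes of the glycine cleavage system stood beside TIF4631 at the top of the ratios, with 3 of its subunit genes called higher. This mitochondrial complex splits glycine into carbon dioxide, ammonia and a one-carbon unit carried by folate. GCV1, its T subunit (YDR019C, chromosome IV, 484163 to 485365), lay at 23.4, 21.5, 30.5 and 351.7 CPM, a 16.3-fold higher level and a log2 ratio of 4.03 (3.88 to 4.19). GCV2, its P subunit that decarboxylates glycine, lay at 30.1, 22.5, 50.6 and 348.3 CPM, a log2 ratio of 3.95 (3.80 to 4.10). In both, the deletion library with TIF4631 stood far above the other libraries, and the deletion control was modestly above both wild-type libraries.

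GCV3, the H subunit that carries the reaction intermediate, lay at 76.0, 70.8, 100.8 and 265.1 CPM, a log2 ratio of 1.91 (1.82 to 2.0). LPD1, the L subunit that the complex shares with pyruvate dehydrogenase, went the other way with a log2 ratio of -0.62 (-0.65 to -0.59). Per length the subunits were uneven in the deletion library with TIF4631, at 302.3 RPKM for GCV1, 115.1 for GCV2, 543.6 for GCV3 and 641.9 for LPD1. The cytosolic serine hydroxymethyltransferase SHM2, which interconverts serine and glycine, lay at 289.7, 334, 314.4 and 1125 CPM, a log2 ratio of 1.75 (1.71 to 1.79), while its mitochondrial counterpart SHM1 had -0.66 (-0.72 to -0.61). CHA1, the deaminase that lets cells use serine and threonine as nitrogen source, lay at 3.29, 2.91, 1.41 and 11.1 CPM, a log2 ratio of 1.92 (1.48 to 2.41), and between the control libraries its ratio was -1.21 (-2.13 to -0.41). Of 18 glycine and one-carbon genes, these 5 were called higher and 1, the methylenetetrahydrofolate reductase MET13, lower at -1.40 (-1.46 to -1.35), while 6 lay within counting error, among them the trifunctional synthase gene MIS1 at 0.01 (-0.05 to 0.08). The list median of 0.10 sat near the 0.00 of all ORFs.

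The letters TGACTC, the core bound by the activators Gcn4 and Bas1, were searched for on both strands between 500 and 101 bases before each gene. They were found for 61.1% of the one-carbon genes, 15.2% of the higher ORFs, 22.1% of the lower ORFs and 11.5% of all 4987 promoters read. The matches of the 3 genes with high levels are shown on the strand of the gene, with the matched letters in capitals and the reverse complement GAGTCA counted as a match. They lie at chrIV:485483-485528 for GCV1, chrXIII:637229-637274 for GCV2 and chrXII:259603-259648 for SHM2, and GCV2 and SHM2 hold further matches nearby.
GCV1: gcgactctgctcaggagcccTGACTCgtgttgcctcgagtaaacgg
GCV2: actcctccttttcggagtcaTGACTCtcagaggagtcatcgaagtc
SHM2: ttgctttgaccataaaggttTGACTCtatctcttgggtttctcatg
A match is a string of letters in the reference genome and says nothing of binding. The transcription factor gene BAS1 had a log2 ratio of 0.99 (0.78 to 1.20), just short of the call, and GCN4 had -0.76 (-0.85 to -0.66). Of 46 amino acid synthesis genes under Gcn4, 0 were called higher and 1, the histidine gene HIS4, lower at -1.17 (-1.24 to -1.11), and their median was -0.04.

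Of the 7 biotin genes, 5 that serve synthesis and uptake were called lower, and BIO5 had the lowest ratio of all ORFs. Biotin is the cofactor of carboxylases, and laboratory yeast makes it only from intermediates that it takes up. BIO5, the transporter of such an intermediate (YNR056C, chromosome XIV, 731618 to 733303), lay at 6.59, 345.5, 6.15 and 1.14 CPM, 295-fold lower in the deletion library with TIF4631, a log2 ratio of -8.21 (-8.98 to -7.60). BIO3 and BIO4, an aminotransferase and a synthetase in neighbouring genes, had -7.32 (-7.76 to -6.94) and -5.95 (-6.25 to -5.68). The controls of both strains were close to each other for each of these genes, with the library labelled wild type plus TIF4631 far above them and the deletion library with TIF4631 below.

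BIO2, the biotin synthase that closes the ring, lay at 160.0, 938.1, 192.9 and 31.2 CPM, a log2 ratio of -4.91 (-5.04 to -4.78). VHT1, the biotin transporter of the plasma membrane, lay at 223.5, 1172, 226.4 and 65.4 CPM, a log2 ratio of -4.16 (-4.25 to -4.08). The biotin ligase BPL1, which attaches the cofactor, had -0.89 (-1.0 to -0.78), and the transcription factor VHR1 had 0.18 (0.03 to 0.33). The median of the 7 genes was -4.91. The 2 libraries moved apart in opposite directions from their own controls: the list median was 2.55 for the library labelled wild type plus TIF4631 over the wild-type control and -1.81 for the deletion library with TIF4631 over the deletion control. Between the control libraries the median was -0.03. These contrasts share libraries with the one described here, and the values are set side by side only. The enzymes that use biotin did not follow, as the acetyl-CoA carboxylase ACC1 had -0.54 (-0.55 to -0.52) and 0 of 3 measured were called.

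VHT1 and BIO5 carry the element described for Vhr1, which 0.241% of all promoters held within the window. It lies at chrVII:620086-620143 for VHT1 and at chrXIV:733549-733606 for BIO5, where the whole window read lies inside the neighbouring gene BIO4. The element is in capitals, and its last letters can overlap TGACTC.
VHT1: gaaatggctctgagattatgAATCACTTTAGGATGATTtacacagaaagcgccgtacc
BIO5: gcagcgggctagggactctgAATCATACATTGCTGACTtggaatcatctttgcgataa
BIO2, BIO3 and BIO4 hold no such match in the window read.

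Of 17 zinc genes under the activator Zap1, 5 were called lower, among them uptake transporters and ZAP1 itself. ZRT1, the high-affinity zinc transporter (YGL255W, chromosome VII, 20978 to 22108), lay at 693.7, 1562, 119.7 and 82.6 CPM, a log2 ratio of -4.24 (-4.32 to -4.16), and both deletion libraries stood below both wild-type libraries. Its low-affinity relative ZRT2 had -1.54 (-1.68 to -1.41) and ZAP1, which is its own target, -1.93 (-2.08 to -1.78), again with both deletion libraries below. ZPS1, a cell surface protein gene, lay at 3.92, 84.9, 2.46 and 1.74 CPM, a log2 ratio of -5.58 (-6.19 to -5.08), and here the library labelled wild type plus TIF4631 alone was high. The vacuolar zinc exporter ZRT3 had -0.91 (-0.99 to -0.84) and the vacuolar importer ZRC1 -0.45 (-0.53 to -0.38), neither called. The called genes also include INO1, which stands among the lipid genes below, and 13 of the 17 lay below 0 beyond counting error, with a median of -0.39. IZH2, a membrane protein gene, was the member farthest above 0, at 0.64 (0.51 to 0.77). The Zap1 core CCTTNAAGG was found in 17.6% of zinc gene promoters and 0.521% of all, and that of ZRT1 is shown from chrVII:20755-20803.
ZRT1: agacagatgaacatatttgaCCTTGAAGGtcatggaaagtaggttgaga

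Of 25 genes under the iron regulators Aft1 and Aft2, 6 were called lower and 0 higher. FET3, the multicopper oxidase of reductive iron uptake, lay at 844.3, 809.7, 328.1 and 244.1 CPM, a log2 ratio of -1.73 (-1.78 to -1.68). FTR1, the permease that works with it, had -1.83 (-1.92 to -1.75), the siderophore transporter ARN1 -1.98 (-2.26 to -1.72) and TIS11, an mRNA decay factor made when iron is scarce, -1.77 (-2.02 to -1.53). For each of these 4 genes both deletion libraries stood below both wild-type libraries. The siderophore transporter ENB1 was called too, at -1.05 (-1.47 to -0.66), from under 12 CPM.

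The cell wall mannoprotein genes FIT2 and FIT3 behaved otherwise. FIT3 lay at 68.9, 87.1, 20.3 and 104.6 CPM, a log2 ratio of 0.26 (0.16 to 0.36), and FIT2 at 24.6, 45.5, 7.12 and 27.8 CPM, a log2 ratio of -0.71 (-0.88 to -0.54). Both were low in the deletion control library. In the deletion library with TIF4631, FIT2 was near the wild-type control, while FIT3 was at its highest level of the 4 libraries. The biotin transporter VHT1 also belongs to the iron list and makes up the count of 6. Over the list 18 genes lay below 0 beyond counting error, 3 above and 4 within it, and the median was -0.44. The iron regulator genes AFT1, at -0.36 (-0.52 to -0.20), and AFT2, at 0.74 (0.56 to 0.93), lay on opposite sides of 0. The Aft1 core TGCACCC stood in 60% of the iron gene promoters, 8.85% of the lower ORFs and 1.83% of all promoters. The matches of ARN1 (chrVIII:21205-21251), FET3 (chrXIII:388551-388597), FTR1 (chrV:461889-461935) and TIS11 (chrXII:416881-416927) are shown.
ARN1: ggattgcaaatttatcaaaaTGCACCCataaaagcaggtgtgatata
FET3: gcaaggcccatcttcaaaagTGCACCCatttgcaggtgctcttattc
FTR1: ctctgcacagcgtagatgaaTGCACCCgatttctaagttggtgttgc
TIS11: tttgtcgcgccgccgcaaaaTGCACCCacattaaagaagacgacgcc

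Of 27 inositol and phospholipid genes under Ino2 and Ino4, 6 were called lower and 0 higher. INO1, the inositol-3-phosphate synthase that makes the first committed step of inositol synthesis (YJL153C, chromosome X, 134332 to 135933), lay at 4272, 13667, 2602 and 1046 CPM, a 13.1-fold lower level and a log2 ratio of -3.71 (-3.73 to -3.69). VPS35 is its neighbour downstream, so the marker that replaced VPS35 lies next to INO1 in both deletion libraries, and the part of that in its level was not tested. ITR1, the major inositol transporter, lay at 1581, 2397, 1395 and 677.6 CPM, a log2 ratio of -1.82 (-1.85 to -1.79). In both genes the library labelled wild type plus TIF4631 was the highest and the deletion library with TIF4631 the lowest.

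Further along the path to phosphatidylcholine, the phosphatidylserine synthase CHO1 had -1.12 (-1.16 to -1.08), the decarboxylase PSD1 -1.33 (-1.41 to -1.25), the methyltransferase CHO2 -0.80 (-0.84 to -0.77) and the methyltransferase OPI3 -1.77 (-1.81 to -1.73). The CDP-diacylglycerol synthase CDS1 had -1.12 (-1.18 to -1.07). Of the whole list 18 genes lay below 0 beyond counting error, 8 within it and 1 above, the CTP synthase URA7 at 0.63 (0.57 to 0.69), and the median was -0.43. The activator gene INO2 lay just outside the call, at -0.98 (-1.21 to -0.76), with INO4 at -0.50 (-0.71 to -0.29) and the repressor gene OPI1 at -0.60 (-0.71 to -0.48). The Ino2 and Ino4 core CATGTG was found in 51.9% of this list, 27.4% of the lower ORFs, 10.1% of the higher ORFs and 11.6% of all promoters. It is shown for INO1 (chrX:136151-136196), ITR1 (chrIV:1445663-1445708) and PSD1 (chrXIV:317810-317855), and on the other strand, as CACATG, for CHO1 (chrV:208608-208653).
INO1: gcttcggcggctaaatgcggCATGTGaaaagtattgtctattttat
ITR1: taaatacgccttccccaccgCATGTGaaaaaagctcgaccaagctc
PSD1: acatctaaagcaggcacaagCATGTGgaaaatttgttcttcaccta
CHO1: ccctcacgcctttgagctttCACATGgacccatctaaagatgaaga

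Genes of sulfate assimilation and methionine synthesis formed the longest set of lower ORFs. SAM2, which makes the methyl donor S-adenosylmethionine, lay at 2110, 3844, 1790 and 782.3 CPM, a log2 ratio of -2.30 (-2.32 to -2.27). MET6, the methionine synthase, lay at 4521, 6153, 4348 and 2560 CPM, a log2 ratio of -1.26 (-1.28 to -1.25). Both stood lowest in the deletion library with TIF4631, and the deletion control was nearer to the wild-type control than to that library.

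The S-adenosylmethionine permease SAM3 had -1.42 (-1.49 to -1.35), the sulfate permease SUL2 -1.39 (-1.6 to -1.19), the homoserine acetyltransferase MET2 -1.31 (-1.49 to -1.15) and the reductase MET16 -1.09 (-1.34 to -0.85). In all, 10 of 36 genes were called lower and 0 higher, 30 lay below 0 beyond counting error, and the median was -0.71. Genes shared with threonine and cysteine synthesis were closer to 0, with the aspartate kinase HOM3 at 0.01 (-0.04 to 0.06), the dehydrogenase HOM6 at 0.00 (-0.03 to 0.03) and the cystathionine lyase CYS3 at 0.07 (0.04 to 0.11). The regulator MET4 had -0.26 (-0.37 to -0.15). The E-box CACGTG, bound by Cbf1 and Pho4, stood in 61.1% of these promoters, 14.2% of the lower ORFs and 5.84% of all. Those of SAM2 (chrIV:1454762-1454807), SUL2 (chrXII:323190-323235), MET2 (chrXIV:116976-117021) and MET16 (chrXVI:877785-877830) are shown.
SAM2: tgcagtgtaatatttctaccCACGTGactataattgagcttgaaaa
SUL2: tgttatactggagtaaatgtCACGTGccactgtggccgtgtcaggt
MET2: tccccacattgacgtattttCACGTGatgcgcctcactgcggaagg
MET16: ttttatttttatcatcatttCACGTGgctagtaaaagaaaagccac

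**Figure D3:**
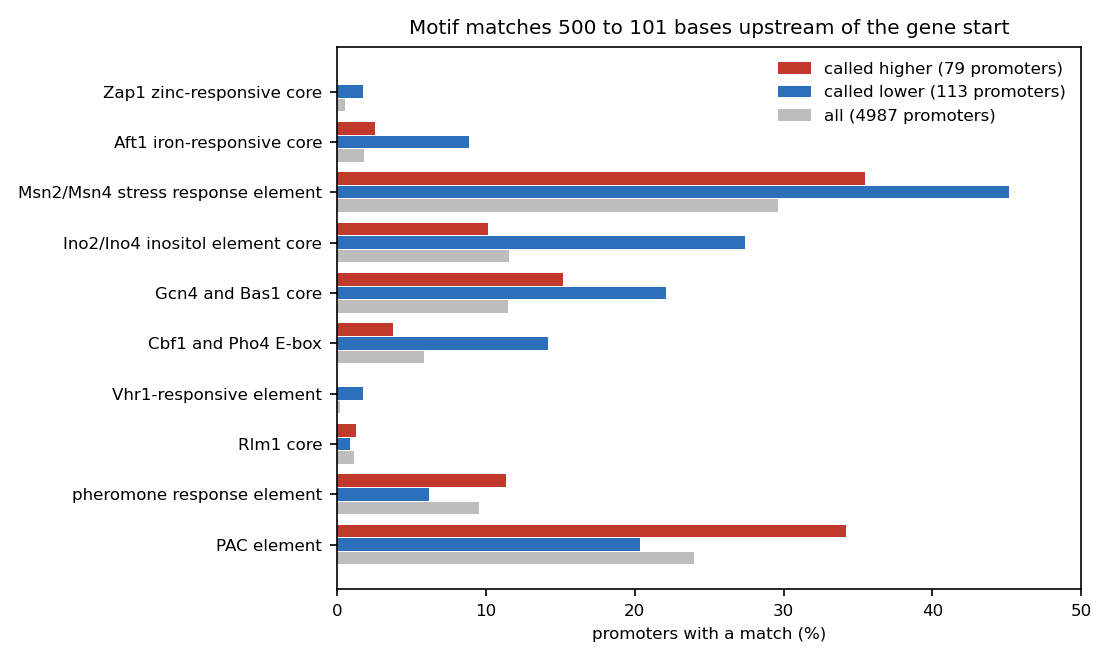
Share of promoters (%) with a match to each of 10 motifs between 500 and 101 bases upstream of the gene, for the called higher ORFs (79 promoters), the called lower ORFs (113 promoters) and all ORFs (4987 promoters). The bars of the lower ORFs pass those of all ORFs for the inositol core (27.4% against 11.6%), the E-box (14.2% against 5.84%) and the Aft1 core (8.85% against 1.83%).

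The measured ORFs encoded in mitochondrial DNA were lower in both deletion libraries, from few reads. OLI1 and ATP6, subunits of the ATP synthase, had log2 ratios of -4.76 (-6.54 to -3.65) and -2.95 (-3.49 to -2.48). COX2 and COX3, subunits of cytochrome c oxidase, had -2.59 (-3.01 to -2.21) and -2.95 (-3.46 to -2.51). AI2 and AI1, the maturases within introns of COX1, had -3.22 (-3.90 to -2.65) and -1.44 (-1.75 to -1.13), and as overlapping genes they may hold reads of COX1. OLI1 rested on 157 and 5 counts, at 6.13, 8.95, 0.879 and 0.300 CPM. All 6 measured were called lower, with a median of -2.95, and their median between the control libraries was -2.41. The read minimum favours this result, since an ORF low in the deletion libraries could pass only through its wild-type reads. Of 10 such ORFs in the files, 6 passed. Those left out included VAR1, with 91, 9, 9 and 4 counts, and ATP8, with 22, 16, 1 and 0. AI5_BETA and SCEI had at most 7 counts in any library. Such reads come from mitochondrial ribosomes, and how well the cytosolic footprint protocol recovers them was not tested.

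Listed nuclear genes for mitochondria were mostly lower by small steps. Outside the lists, the cytochrome c oxidase gene COX26 was farther off, at 99.6, 200, 62.0 and 34.8 CPM. Its log2 ratio was -2.52 (-2.65 to -2.40), and its largest gap set the library labelled wild type plus TIF4631 above the other libraries. Of 72 genes listed for mitochondrial ribosomal proteins 0 were called, but 70 lay below 0 beyond counting error and 1 above, and the median was -0.41. The member above, MRP8 at 0.22 (0.17 to 0.27), bears the name but is not an established ribosomal protein. RSM27, at -0.80 (-0.98 to -0.63), and MRP7, at -0.78 (-0.91 to -0.66), were the lowest members. Of 21 tricarboxylic acid cycle genes 19 lay below 0 beyond counting error, with the citrate synthase CIT1 called at -1.03 (-1.06 to -1.02) and a median of -0.38. Of 38 nuclear genes of the respiratory chain 32 lay below and 4 above, the cytochrome c gene CYC1 was called at -1.12 (-1.17 to -1.07), and the median was -0.30. Against 35.3% of all ORFs, each of these lists leaned to one side. For the mitochondrial ribosomal proteins the median over the deletion control was -0.43 and that between the control libraries -0.03. For the tricarboxylic acid cycle these medians were -0.39 and -0.05. In these lists the lean was present where the deletion library with TIF4631 entered and near 0 where it did not. The respiratory chain had -0.11 and -0.10, so its lean was not confined in this way.

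Genes for making cytosolic ribosomes leaned the other way. Of 107 ribosome biogenesis genes, 102 lay above 0 beyond counting error and 2 below, CBF5 at -0.17 (-0.22 to -0.13) and NSR1 at -0.09 (-0.16 to -0.01). The median was 0.50, and the RNA helicases DHR2, at 1.24 (0.99 to 1.5), and DBP2, at 1.08 (1.01 to 1.14), and the export factor BUD20, at 1.16 (1.0 to 1.32), were called higher. Of the 67 cytosolic ribosomal protein genes that the files list, 63 lay above 0 beyond counting error and 0 were called, with a median of 0.30 and the highest value in RPS25B, 0.96 (0.92 to 1.0). Of 21 genes for RNA polymerases I and III 17 lay above, led by RPA12 at 0.80 (0.65 to 0.96), with a median of 0.32.

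The lean had a part in each of the compared libraries. The biogenesis median was -0.35 for the library labelled wild type plus TIF4631 over the wild-type control, 0.26 for the deletion library with TIF4631 over its control and -0.07 between the control libraries. In the same order the medians were -0.25, 0.12 and -0.07 for the cytosolic ribosomal proteins. They were -0.26, 0.20 and -0.05 for RNA polymerases I and III. The called biogenesis members differed in which library stood apart. For DBP2, at 277.2, 148.3, 248.8 and 312.6 CPM, the library labelled wild type plus TIF4631 is the one that stands apart. For DHR2 and BUD20 the largest gap set the deletion library with TIF4631 above the other libraries. The PAC element GATGAG, common before biogenesis genes, stood in 68.2% of that list, 34.2% of the higher ORFs and 24.0% of all promoters.

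**Figure D4:**
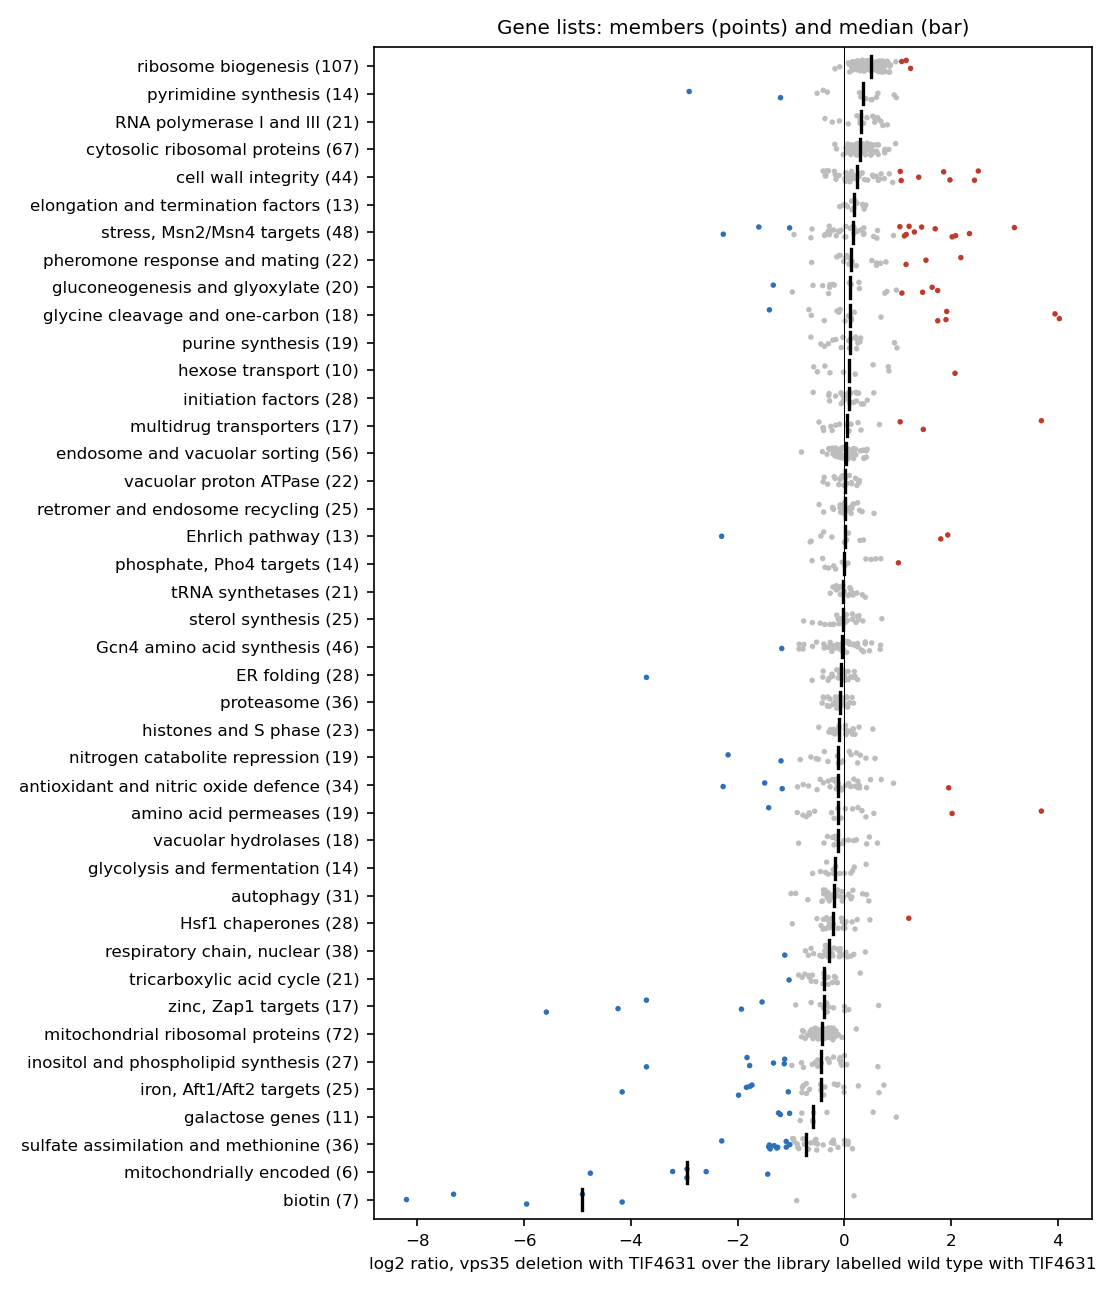
Log2 ratio of the vps35 deletion library with TIF4631 over the library labelled wild type plus TIF4631 for the members of each gene list, with 1 point per gene, red for called higher, blue for called lower, grey for neither, a bar at the list median and the number of members in parentheses. The lists run from ribosome biogenesis, with a median of 0.50, down to the mitochondrially encoded ORFs at -2.95 and the biotin genes at -4.91.

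Of 44 genes of the cell wall integrity pathway, 7 were called higher and 0 lower. This pathway runs from wall sensors through Pkc1 to the kinase Slt2 and the factor Rlm1. PRM5, a membrane protein gene and widely used reporter of the pathway, lay at 32.3, 25.4, 79.9 and 144.8 CPM, a log2 ratio of 2.51 (2.37 to 2.66). CWP1, a mannoprotein of the wall, lay at 228.5, 176.6, 532.3 and 696.9 CPM, a log2 ratio of 1.98 (1.92 to 2.04). SLT2 itself lay at 70, 70.1, 130.4 and 184.5 CPM, a log2 ratio of 1.40 (1.3 to 1.49). For each of the 3 genes both deletion libraries stood above both wild-type libraries.

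KDX1, a kinase gene paralogous to SLT2, had 2.44 (1.93 to 3.02) from at most 11.0 CPM, SRL3 1.86 (1.64 to 2.10), RCR1, a wall chitin gene, 1.07 (0.88 to 1.26) and RLM1 1.05 (0.90 to 1.20). Over the whole list 31 genes lay above 0 beyond counting error and 9 below, and the median was 0.23. The glucan synthase FKS1 had -0.17 (-0.19 to -0.15) and the kinase PKC1 0.02 (-0.07 to 0.11). The Rlm1 core TATTTATAG stood in 6.82% of this list, 1.27% of the higher ORFs and 1.14% of all promoters.

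Stress genes listed under Msn2 and Msn4 were split. HSP12, a small heat shock protein at membranes, lay at 213.8, 234.7, 510.8 and 2140 CPM, a 9.12-fold higher level and a log2 ratio of 3.19 (3.14 to 3.23). The transketolase TKL2 had 2.35 (2.21 to 2.48), PHM7 2.09 (1.94 to 2.24) and the hydrophilin SIP18 1.70 (1.38 to 2.05). In HSP12 and TKL2 the deletion control stood between the wild-type libraries and the deletion library with TIF4631. In contrast the glycogen synthase GSY1 had -1.6 (-1.67 to -1.54). HSP30, a plasma membrane stress protein gene, lay at 195.4, 322.6, 62.6 and 66.9 CPM, a log2 ratio of -2.27 (-2.36 to -2.18). The window read before HSP30 held no match to the stress element AGGGG, and its control by Msn2 and Msn4 is not established here. The glycogen phosphorylase GPH1 had -0.94 (-0.97 to -0.92), short of a call. Of 48 genes 11 were called higher and 3 lower, 26 lay above and 18 below 0 beyond counting error, and the median was 0.17. Chaperone genes under Hsf1 had a median of -0.22 with 17 of 28 below, HSP78, a mitochondrial disaggregase, lowest at -0.98 (-1.02 to -0.93). The stress element AGGGG is frequent, in 35.4% of the higher, 45.1% of the lower and 29.6% of all promoters.

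Mating genes that passed the read minimum were higher at a few members. AGA1, the anchor of the a-agglutinin, which is induced by pheromone in both mating types, lay at 92.6, 65, 69.8 and 295.5 CPM, a log2 ratio of 2.18 (2.09 to 2.28). SST2, which ends G protein signalling, had 1.53 (1.42 to 1.64) and the fusion gene FUS1 1.16 (0.92 to 1.40). The deletion library with TIF4631 was the highest for each. Of 35 such genes in the files 22 passed. Of these 22 genes 3 were called higher and 0 lower, and 12 lay above 0 beyond counting error. The kinase FUS3 had 0.68 (0.55 to 0.81) and the cell cycle inhibitor FAR1 -0.61 (-0.65 to -0.57). The genes left out were uneven, with PRM1 at 42, 32, 23 and 83 counts and STE6 at 55, 42, 26 and 34. The pheromone element TGAAACA stood in 59.1% of this list, 11.4% of the higher ORFs and 9.53% of all promoters, and is shown for AGA1 (chrXIV:703477-703523), SST2 (chrXII:1041585-1041631) and FUS1 (chrIII:71596-71642).
AGA1: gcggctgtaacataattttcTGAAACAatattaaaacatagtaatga
SST2: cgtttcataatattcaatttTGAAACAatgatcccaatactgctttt
FUS1: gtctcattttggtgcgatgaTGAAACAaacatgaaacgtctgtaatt

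Genes of carbon and nitrogen metabolism gave single large values. The aromatic aminotransferase ARO9 lay at 270.1, 207, 409.3 and 793.3 CPM, a log2 ratio of 1.94 (1.88 to 1.99), and the decarboxylase ARO10 of the same Ehrlich pathway had 1.81 (1.76 to 1.86), both with the deletion control above the wild-type libraries. ADH5, an alcohol dehydrogenase, had -2.30 (-2.47 to -2.14). The flavohaemoglobin YHB1, which detoxifies nitric oxide, lay at 2897, 3439, 2023 and 712.6 CPM, a log2 ratio of -2.27 (-2.30 to -2.24). NCE103, the carbonic anhydrase, lay at 314.6, 186.7, 583.5 and 1082 CPM, a log2 ratio of 2.54 (2.48 to 2.59).

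The glycerol phosphatase GPP1 had 1.92 (1.88 to 1.97). Of 20 gluconeogenesis and glyoxylate genes 4 were called higher, among them the malate dehydrogenase MDH2 at 1.65 (1.58 to 1.72) and the thiolase POT1 at 1.75 (1.41 to 2.12), and 1 lower, the lactate permease JEN1 at -1.33 (-1.42 to -1.24). The amino acid exporter AQR1 had 3.69 (2.98 to 4.61) from 0.851, 0.855, 2.20 and 11.4 CPM, and the ammonium exporter ATO3 2.02 (1.84 to 2.21), the latter with a low level in the library labelled wild type plus TIF4631, at 17.3 CPM against 45.2 to 70.2 elsewhere. Of 11 galactose genes 9 lay below 0 beyond counting error, with GAL10 at -0.83 (-0.84 to -0.82) and GAL1 at -0.59 (-0.60 to -0.59), and the called members were GCY1 at -1.20 (-1.22 to -1.17), PCL10 at -1.23 (-1.40 to -1.07) and PGM2 at -1.02 (-1.05 to -1.0). TIF4631, whose plasmid carries a galactose-inducible promoter, was thus higher in a library where most galactose genes were lower.

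Genes of the pathway in which VPS35 works, with VPS35 itself left out, held no called ORF. Over all ORFs 1.58% were called higher and 2.4% lower, so 0 calls in lists as short as those below is near the overall share. Of 25 genes of retromer and endosome recycling 0 were called, 7 lay above and 5 below 0 beyond counting error, and the median was 0.01. The other retromer subunits were close to 0, with PEP8 (VPS26) at -0.01 (-0.14 to 0.12), VPS5 at -0.07 (-0.18 to 0.04), VPS17 at 0.03 (-0.08 to 0.14) and VPS29 at 0.29 (0.15 to 0.42). The receptor PEP1 (VPS10), the classical cargo of retromer, had -0.39 in log2 ratio. The tethering subunits VPS53, at 0.56 (0.44 to 0.67), and VPS54, at -0.47 (-0.61 to -0.33), marked the ends of the range. Of 56 further genes of endosomal and vacuolar sorting 0 were called and 26 lay within counting error, with VPS36 of ESCRT-II lowest at -0.80 (-1.02 to -0.59). The vacuolar proton ATPase (22 genes), the proteasome (36), the aminoacyl-tRNA synthetases (21) and sterol synthesis (25) had 0 called ORFs as well, and their medians lay between -0.07 and 0.01. Autophagy genes had 0 of 31 called and a median of -0.19, with 16 below 0 beyond counting error.

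The called ORFs were spread over the genome. Median log2 ratios of the 16 nuclear chromosomes lay between -0.06 and 0.05. Chromosome X, which carries VPS35, held the largest share of lower ORFs among them, 15 of 305 or 4.92%. These 15 include VPS35, whose call follows from its deletion, and its neighbour INO1. Chromosome IV was among the smallest, at 1.05%. Within 20 kb of a chromosome end 3.39% of 59 ORFs were higher and 6.78% lower, against 1.56% and 2.21% of the others, which rests on 6 ORFs: CHA1, YEL073C, ARN1, YJR154W, MSC1 and ENB1. Of 443 genes longer than 3000 nt 4 were higher and 0 lower. By level per length, with ORFs put in 5 equal bins, the lowest and the highest bin held the most calls, 2.91% higher and 3.11% lower in the lowest and 1.6% and 3.41% in the highest. In all, 43 of the 79 higher and 53 of the 120 lower ORFs belonged to at least 1 of the gene lists described.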

How the data were processed

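The deposited tables, 1 per library, give total reads per ORF, which are whole counts per the file headers, and RPKM, which per the file headers is the authors' scaling to ORF length and dataset reads. Counts over RPKM returned a length 15 nt below the annotated gene length for 96.0% of ORFs (within 0.01 nt). CASAVA, cutadapt 1.3, Bowtie2 and the sacCer3 build are named in the submitters' processing notes. Which tool counted the reads, with which annotation and rule for multiple matches, is not given in the sources used here. The members, gene lists, motifs and rules were chosen with earlier results of these data known.

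Symbols, coordinates and promoter sequences came from the RefSeq annotation and genome of assembly R64, the same assembly as sacCer3, and 5438 ORFs matched by locus tag. TMM factors from edgeR 4.0.16 (R 4.3.3) over all 4 libraries were 0.997, 0.971, 1.01 and 1.02. CPM are counts over total times factor. Log2 ratios took scaled counts plus 0.5, with 95% conditional binomial (Clopper-Pearson) intervals, and the computation was tested on simulated data. The labels give 1 sample per group, so no p-value was computed. Named genes were drawn from the targets and markers and the 20 highest and 20 lowest ORFs by the interval bound nearest 0. In each of 44 lists they were drawn from the called members, the members farthest from 0 and all members of short lists. Not every such ORF is named. Among the 20 highest, ARI1 at 2.23 and YNL194C at 2.07 were not described. Among the 20 lowest the same holds for YLL056C at -3.37, and YJR154W at -5.95 and YEL073C at -2.85 were named for their position only. A few regulators, partners and controls outside these were named after their values had been seen. A list's count and median stand beside those of all ORFs in place of a test. Motifs were matched exactly on both strands, leaving out the 100 bases next to the gene. Alternatives were other scalings (DESeq2 1.42.0 size factors among them), filters, added counts, thresholds and comparison libraries. Python 3.11.15, pandas 2.3.3, numpy 2.4.6, scipy 1.17.1 and matplotlib 3.10.9 were used.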

Additional observations from a re-analysis of the deposited data

Results flagged for a closer look

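CHA1, the serine and threonine deaminase gene (YCL064C), moved in opposite directions in the comparisons of strain under the separate plasmid labels. Between the libraries of the TIF4631 label its log2 ratio of deletion over wild type was 1.92 (95% counting interval 1.48 to 2.41), and between the control libraries it was -1.21 (-2.13 to -0.41), a difference of 3.13. Its levels were 3.29 CPM in the wild-type control, 2.91 in the library labelled wild type plus TIF4631, 1.41 in the deletion control and 11.1 in the deletion library with TIF4631. With 1 library per group the difference was not tested, and the gene lies within 20 kb of the end of chromosome III.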

How the results depend on the processing

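The 79 higher and 120 lower calls were 97 and 105 with total count scaling, 79 and 120 with DESeq2 size factors, 80 and 118 with TMM over the 2 compared libraries, 81 and 117 without the 50 most abundant ORFs in the totals, 77 and 117 with 5 counts added, 105 and 148 with no filter, 56 and 89 with at least 1000 summed counts, and 60 and 89 where the interval bound had to reach 1. A log2 threshold of 1.5 left 37 and 50, by its construction. Setting the wild-type control in place of the library labelled wild type plus TIF4631 gave 71 and 81. Of the 199 calls, 128 were kept, and the direction of all 199 was the same. This swap keeps the deletion library with TIF4631, which entered the selection of the calls, so agreement in direction is partly built in. In it 7 list medians of at most 0.19 in size changed sign, among them autophagy, initiation factors and vacuolar hydrolases. Setting the vps35 deletion control in place of the deletion library with TIF4631 gave 19 higher and 65 lower, with 60 calls kept, and turned 10 ORFs: CHA1 -1.03, RTN2 -0.0244, YDR222W -0.0892, PET117 0.0087, SOL4 -0.0897, MAE1 -0.13, SHM2 -0.0872, SPG4 -0.13, DDR2 -0.28 and NCE102 -0.15. There 16 list medians changed sign too, of at most 0.41 in size, among them the mitochondrial ribosomal protein, stress, Ehrlich, purine, proteasome, retromer and endosomal sorting lists, and the cause was not tested. Total count scaling moved the median of all ORFs to 0.07 and turned list medians of at most 0.05 in size. The 6 mitochondrially encoded ORFs gave no value with at least 1000 counts.

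No paired analysis was possible because each group holds 1 library, and for the same reason leaving out a library of a group was not run. Low counts limit OLI1, AQR1 and CHA1, as their intervals show.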
